A study of Mus musculus with 12 samples.

Results

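The genes described here are 39 genes of sterol and fatty acid synthesis and of the factors that control it, out of 22880 features in the count table. They were taken by symbol from a list whose rule names functions and no measured value, although earlier results of these data were known when it was drawn up, and all 39 were found. The list falls into 5 arms: 8 genes of the mevalonate arm, 11 of the sterol arm, 6 of control by sterol regulatory element-binding proteins (SREBPs), 5 of the liver X receptor (LXR) arm and 9 of the fatty acid arm. RNA sequencing covered 12 libraries of 4T1, a transplantable mouse mammary tumour cell line that seeds the lung, in 4 groups of 3 libraries. MYBup cells were transfected with pcDNA3-mMyb, a plasmid carrying mouse Myb, and are labelled low in lung metastatic activity. The mock cells were transfected with pcDNA3.1 and are labelled normal. The lung3 cells were untransfected, had passed 3 times through the lung in vivo and are labelled high. The wt cells were untransfected, not passaged and labelled normal. The study set out to find genes that move one way in MYBup relative to mock and the other way in lung3 relative to wt. The labels do not say whether a line is a pool or 1 clone, whether passaging used 1 mouse or several, or whether the 3 replicates are separate cultures. The p-values therefore rest on a spread between replicates that may be technical, and a difference between lines cannot be told apart from an effect of Myb or of passage.

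Cells make cholesterol from acetyl-CoA through mevalonate, isoprenoids, squalene and lanosterol, and they make fatty acids from cytosolic acetyl-CoA that is carboxylated, elongated and desaturated. The transcription factors SREBP-1 and SREBP-2, encoded by Srebf1 and Srebf2, are held in the endoplasmic reticulum with the escort protein SCAP by INSIG proteins while sterols are plentiful, and move to the Golgi to be cleaved and activated when sterols are scarce. SREBP-2 is best known for sterol genes and SREBP-1c for fatty acid genes, whereas LXRs are activated by oxysterols and raise cholesterol export and Srebf1. Tumour cells often make these lipids themselves.

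Total counts per library lay between 8912989 and 24745660. The low-count filter kept 11291 genes, among them 38 of the 39. The exception was Abca1, the cholesterol exporter that is a classic LXR target, with 16 counts summed over the MYBup libraries, 13 over mock, 2 over lung3 and 6 over wt. Myb itself stood at 39.3, 42.9 and 39.8 counts per 1000000 counts (CPM, scaled by TMM) in MYBup replicates 1 to 3 and at 5.17, 4.49 and 6.80 CPM in mock, with every MYBup library far above every mock library. Plasmid-derived and endogenous Myb reads are not separated. The lung3 libraries had 3.13, 2.77 and 2.22 CPM and the wt libraries 4.27, 4.96 and 5.75 CPM. The 6 markers of mammary epithelial tumour cells summed to between 1985 and 2759 CPM in every library, most of it from Krt8 and Krt18. Single markers differed between the lines. Cldn7 was at or under 2.495 CPM in every MYBup and mock library and at or above 8.633 CPM in every lung3 and wt library. For Cdh1 these limits were 290.5 and 422.7 CPM. Krt8 went the other way, at or above 1102 CPM in MYBup and mock and at or under 887.1 CPM in lung3 and wt. The Krt18 means were also higher in MYBup and mock. Of 6 adipocyte markers, Adipoq, Plin1, Cidec, Lep and Cfd had 0 counts in all 12 libraries, and the lung epithelial genes Sftpc and Sftpb had 0 as well. The other adipocyte marker, Fabp4, had 26 counts summed over MYBup, 31 over mock, 2 over lung3 and 8 over wt. In the same order, the lung epithelial genes Ager and Scgb1a1 had 4, 5, 4 and 1 counts and 0, 1, 0 and 1 counts. The 7 leukocyte markers summed to 1.01 to 1.18 CPM in MYBup, 0.654 to 1.78 in mock, 5.09 to 14.1 in lung3 and 2.18 to 4.75 in wt. In lung3 and wt most of this sum was Cd74, at 4.95, 5.08 and 13.5 CPM in lung3 and 2.00, 2.15 and 4.36 CPM in wt, whereas the general leukocyte marker Ptprc was at or under 0.813 CPM in every library and Cd3e at 0 counts throughout. Of the 6 fibroblast markers, Pdgfra made up nearly all of the sum, at 38.7 to 48.6 CPM in MYBup, 36.9 to 48.6 in mock, 15.9 to 21.4 in lung3 and 21.5 to 30.15 in wt, while Col1a1, Col1a2, Col3a1 and Dcn were each at or under 0.392 CPM and Lum at 0 counts in every library. The 4 endothelial markers summed to at most 0.496 CPM. The part of these cells in the differences below was not tested.

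Promoter sequences, 250 bases before to 50 after a start site, were at hand from RefSeq (build GRCm38.p6) for 31 of the 39 genes, with 40 promoters in all. Printed below are those of the 5 genes with the largest falls in MYBup cells among those with a promoter at hand, and that of Ggps1, which did not pass the test, for contrast. Capitals mark every CCAAT box on either strand (read as ATTGG on the minus strand) and, in Hmgcs1, the sterol response element TCACCCCAC. The Fads2 window holds neither and has no capitals. The windows are chr13:119690101-119690400 on the plus strand for Hmgcs1, chr13:8885356-8885655 on the plus strand for Idi1, chr5:4104648-4104947 on the minus strand for Cyp51, chr5:28071162-28071461 on the plus strand for Insig1, chr19:10101454-10101753 on the minus strand for Fads2 and chr13:14063439-14063738 on the minus strand for Ggps1.
Hmgcs1: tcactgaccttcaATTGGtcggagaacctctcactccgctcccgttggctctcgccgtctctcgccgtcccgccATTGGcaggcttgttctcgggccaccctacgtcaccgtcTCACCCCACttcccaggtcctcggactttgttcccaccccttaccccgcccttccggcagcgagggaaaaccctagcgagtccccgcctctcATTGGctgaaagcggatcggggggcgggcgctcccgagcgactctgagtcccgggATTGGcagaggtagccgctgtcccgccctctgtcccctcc
Idi1: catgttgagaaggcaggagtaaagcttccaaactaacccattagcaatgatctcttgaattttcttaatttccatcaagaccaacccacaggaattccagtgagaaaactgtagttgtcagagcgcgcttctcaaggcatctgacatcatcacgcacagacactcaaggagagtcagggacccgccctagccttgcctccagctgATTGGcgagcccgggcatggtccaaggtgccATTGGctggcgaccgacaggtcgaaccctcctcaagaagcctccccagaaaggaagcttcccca
Cyp51: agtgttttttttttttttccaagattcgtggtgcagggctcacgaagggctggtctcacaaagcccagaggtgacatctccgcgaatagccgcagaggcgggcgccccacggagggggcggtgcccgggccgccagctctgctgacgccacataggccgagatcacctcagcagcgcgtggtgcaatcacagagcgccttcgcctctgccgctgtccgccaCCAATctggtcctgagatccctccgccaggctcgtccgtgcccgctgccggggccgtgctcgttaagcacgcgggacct
Insig1: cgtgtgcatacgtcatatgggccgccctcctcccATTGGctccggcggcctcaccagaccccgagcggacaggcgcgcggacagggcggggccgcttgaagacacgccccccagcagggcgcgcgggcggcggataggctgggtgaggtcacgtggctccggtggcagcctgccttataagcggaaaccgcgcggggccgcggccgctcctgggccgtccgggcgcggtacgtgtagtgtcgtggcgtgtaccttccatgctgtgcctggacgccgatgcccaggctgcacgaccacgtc
Fads2: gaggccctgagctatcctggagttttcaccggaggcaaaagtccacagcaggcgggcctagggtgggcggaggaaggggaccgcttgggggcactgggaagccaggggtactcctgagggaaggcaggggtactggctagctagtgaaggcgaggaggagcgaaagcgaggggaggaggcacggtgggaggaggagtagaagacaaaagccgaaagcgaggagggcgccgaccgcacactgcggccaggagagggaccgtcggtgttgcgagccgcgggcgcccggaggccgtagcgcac
Ggps1: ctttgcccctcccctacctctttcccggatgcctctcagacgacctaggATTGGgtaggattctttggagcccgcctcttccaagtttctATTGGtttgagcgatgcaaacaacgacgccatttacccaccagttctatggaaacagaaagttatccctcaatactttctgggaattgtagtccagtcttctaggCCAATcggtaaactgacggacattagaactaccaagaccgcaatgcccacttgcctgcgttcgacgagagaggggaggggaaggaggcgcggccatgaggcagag

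In the Hmgcs1 window the motif TCACNCCAC begins at position -137 from the start site and overlaps the shorter form CACCCCAC at -136, and 4 CCAAT boxes lie at -237, -176, -45 and 11. Among the 31 genes, TCACNCCAC was found in 1, against 1.44% of 27025 genes in the promoter table, and CACCCCAC in 2 (Hmgcs1 and Acat2), against 3.3%. All motifs were searched on both strands, and every promoter of a gene was counted. The 27025 genes were all those with a promoter, whether expressed in these cells or not. The CCAAT box, bound by NF-Y, which acts beside SREBPs at sterol genes, was found in 23 of 31 (74.2%), against 41.1% of all genes with a promoter. It was found in 9 of 9 sterol, 6 of 7 mevalonate, 4 of 5 SREBP, 3 of 6 fatty acid and 1 of 4 LXR genes. The GC box GGGCGG was found in 24 (77.4%), against 38.2%, and the E-box CACGTG in 6 (19.4%), against 8.09%. Of the Myb-type letters, TAACNG was found in 2 (6.45%), against 25.9%, and CAACNG in 10 (32.3%), against 38.3%. Ggps1 holds 3 CCAAT boxes, so the box was also found in a gene whose level did not pass the test. A match describes letters in a window, not a bound site, and the absence of one concerns this window alone.

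MYBup cells had lower levels of most of these genes than mock cells. By edgeR's quasi-likelihood test across all 11291 genes with Benjamini-Hochberg adjustment and a threshold of 0.05, 25 of 38 genes fell, against 12.6% of all tested genes called lower, and 0 rose, against 14.3% of all called higher. At an unadjusted p under 0.05, and by DESeq2 and limma voom, the number that rose was also 0. The median log2 fold change of the 38 was -0.67, and 34 lay below 0, whereas the median of all tested genes was 0.001. In 25 of 38 genes all 3 MYBup libraries lay below all 3 mock libraries, against 18.8% of all genes. By arm, 4 of 8 mevalonate, 8 of 11 sterol, 3 of 6 SREBP, 1 of 4 tested LXR and 9 of 9 fatty acid genes fell. All 25 calls held without mock replicate 3, the lowest mock library for many of these genes. Leaving out other libraries ended the calls of Scd1 and Elovl6 alone, as given with those genes.

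Within the mevalonate arm, 4 of 8 genes fell. Hmgcs1 (chr13:119690379-119708260, GRCm38), whose promoter is printed above, encodes the cytosolic synthase that makes HMG-CoA. It had 61.4, 62.0 and 61.0 CPM in MYBup replicates 1 to 3 and 160.1, 144.6 and 117.5 CPM in mock. The MYBup libraries differed by about 1 CPM and lay far below the lowest mock library, replicate 3. The log2 fold change was -1.20 (SE 0.13, adjusted p = 3.66e-05). Exons of Gm48342 on the opposite strand cover 12.1% of its exon length. Idi1 (chr13:8885501-8892451) encodes the isomerase that makes dimethylallyl diphosphate, and had 9.29, 10.3 and 11.1 CPM in MYBup and 28.2, 23.0 and 20.98 CPM in mock. The groups did not overlap, and the log2 fold change was -1.23 (SE 0.16, adjusted p = 0.000111), the lowest of the arm. Idi1 shares 25.3% of its 50-base stretches with 5 other genes, most of them with Gm13502 (17.7%), so its counts are uncertain.

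Fdps (chr3:89093588-89101959) encodes farnesyl diphosphate synthase, at the branch point to sterols, dolichol and prenylated proteins. It had 71.4, 54.6 and 53.3 CPM in MYBup and 132.5, 153.9 and 80.7 CPM in mock. Mock replicate 3 stood well below the other mock libraries but above every MYBup library, and the log2 fold change was -1.04 (SE 0.21, adjusted p = 0.00321). Exons of the gene model Gm43738 cover 26.7% of the exon length of Fdps on the same strand, so its counts are uncertain. Acat2 (chr17:12942890-12960747), the cytosolic thiolase at the entry of the arm, had 47.2, 36.7 and 39.6 CPM in MYBup and 72.4, 83.7 and 50.6 CPM in mock. The groups stood apart by the narrow gap between MYBup replicate 1 and mock replicate 3, and the log2 fold change was -0.75 (SE 0.17, adjusted p = 0.00654). Acat2 shares 39.1% of its 50-base stretches with Acat3, so reads may be split between them, although Acat3 had 12 counts summed over MYBup, 13 over mock, 7 over lung3 and 15 over wt.

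The other 4 mevalonate genes did not pass. Mvk, Pmvk and Mvd encode the steps that turn mevalonate into isopentenyl diphosphate, and had log2 fold changes of -0.28 (SE 0.17), -0.11 (SE 0.20) and -0.28 (SE 0.24). Their libraries overlapped between groups, with adjusted p of 0.26, 0.726 and 0.425. Ggps1, which makes geranylgeranyl diphosphate for protein prenylation rather than sterols, averaged 27.2 ± 3.05 CPM over the MYBup libraries and 24.2 ± 2.75 CPM over mock (SD, n = 3 each). Its log2 fold change of 0.17 (SE 0.11, adjusted p = 0.30) was the highest of the arm.

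In the sterol arm, which runs from squalene to cholesterol, 8 of 11 genes fell. Cyp51 (chr5:4081145-4104746), the lanosterol demethylase, had 50.9, 52.1 and 49.1 CPM in MYBup and 115.7, 119.1 and 94.7 CPM in mock. Every mock library exceeded every MYBup library by a wide gap, and the log2 fold change was -1.12 (SE 0.13, adjusted p = 4.15e-05). Msmo1 (chr8:64718139-64733792), the C4-methylsterol oxidase of the next steps, had 71.0, 53.0 and 57.6 CPM in MYBup and 125.2, 147.0 and 94.8 CPM in mock. The groups did not overlap although mock replicates spread widely, and the log2 fold change was -1.02 (SE 0.16, adjusted p = 0.000528).

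Sc5d (chr9:42251595-42264256), the lathosterol desaturase, had 38.1, 41.3 and 39.6 CPM in MYBup and 84.7, 83.4 and 69.7 CPM in mock. Its groups stood well apart, and the gene fell by 1.00 on the log2 scale (SE 0.12, adjusted p = 8.67e-05). Nsdhl (chrX:72918557-72958514), a dehydrogenase that acts with Msmo1 in removing the C4 methyl groups, had 24.7, 23.5 and 20.9 CPM in MYBup and 43.4, 49.2 and 33.4 CPM in mock, again without overlap (log2 fold change -0.87, SE 0.14, adjusted p = 0.000543). Sqle (chr15:59315077-59331192) encodes squalene epoxidase, a rate-limiting oxygenase of the pathway. It had 75.8, 79.0 and 76.5 CPM in MYBup and 136.9, 143.1 and 117.0 CPM in mock, and fell by 0.78 on the log2 scale (SE 0.099, adjusted p = 0.000108).

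Dhcr7, the enzyme of the last step in one branch, fell by 0.72, while Fdft1 (squalene synthase) and Lss (lanosterol synthase) each fell by 0.67. Exons of Ctsb on the opposite strand cover 18.3% of the exon length of Fdft1, and whether reads were counted by strand is not known, so Fdft1 is uncertain. The 3 sterol genes that did not pass were Tm7sf2, a sterol reductase with 8.04 ± 1.73 CPM in MYBup and 8.89 ± 1.44 CPM in mock, Hsd17b7, a ketosteroid reductase with 21.8 ± 1.62 CPM in MYBup and 25.1 ± 4.44 CPM in mock, and Ebp, a sterol isomerase with 32.9 ± 2.97 CPM in MYBup and 38.6 ± 6.13 CPM in mock (SD, n = 3 each). Their log2 fold changes were -0.15, -0.20 and -0.23.

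**Figure D1:**
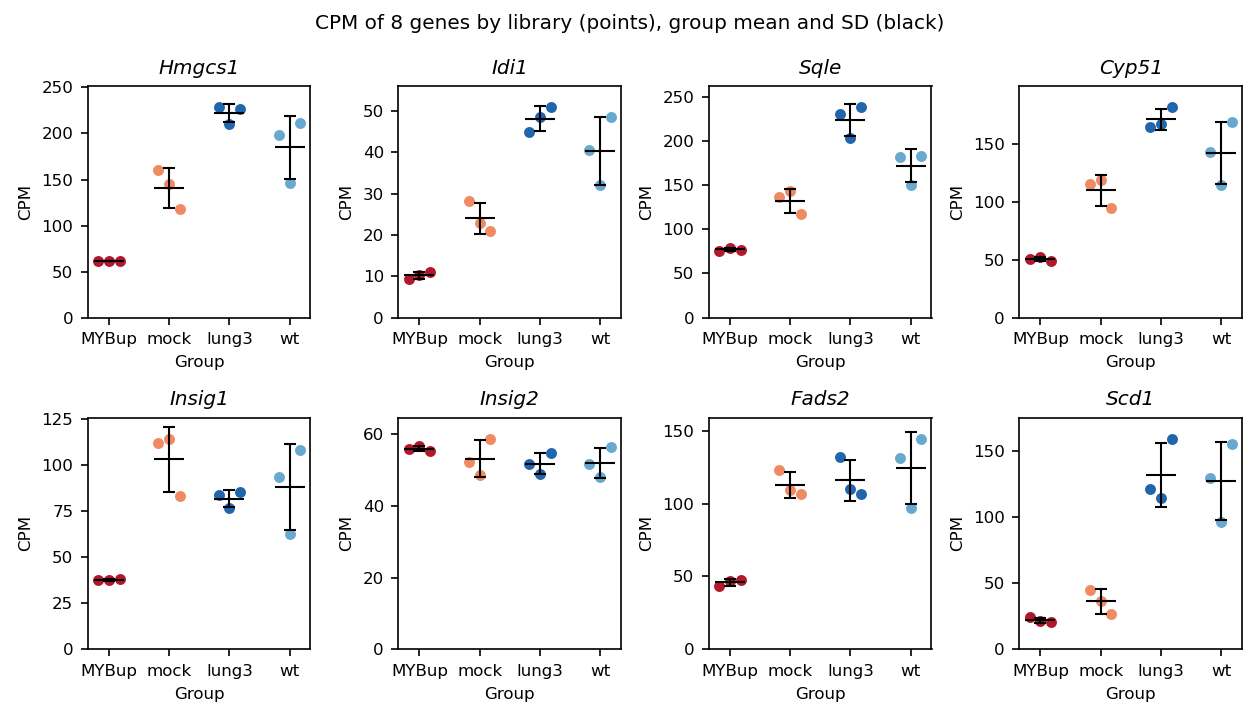
CPM of 8 genes in each library, with groups on the horizontal axis, points for the 3 libraries and black marks for the mean and SD. The MYBup libraries lie below all others for Hmgcs1, Idi1, Sqle, Cyp51, Insig1, Fads2 and Scd1, and Scd1 is low in mock as well. For Insig2 the MYBup libraries overlap those of mock and wt and lie just above those of lung3.

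Among the genes of SREBP control, 3 of 6 fell, and of the INSIG paralogs 1 passed the test. Insig1 (chr5:28071363-28078662) encodes a sterol-regulated retention protein and is itself a well-known SREBP target. It had 37.4, 37.7 and 38.4 CPM in MYBup and 112.4, 114.6 and 83.1 CPM in mock. The lowest mock library stood far above the highest MYBup library, and the log2 fold change was -1.45 (SE 0.17, adjusted p = 6.00e-05). Its paralog Insig2 (chr1:121304353-121332589), which is not raised by SREBPs in the same way, had 56.0, 56.8 and 55.3 CPM in MYBup and 52.2, 48.7 and 58.8 CPM in mock. The MYBup values lay within the mock range (log2 fold change 0.073, SE 0.088, adjusted p = 0.577). Per kilobase of exon, mean levels were 12.2 CPM for Insig1 and 16.1 for Insig2 in MYBup, but 33.4 and 15.3 CPM in mock.

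Srebf2 (chr15:82147181-82205379) had 82.7, 98.0 and 99.6 CPM in MYBup and 135.7, 122.5 and 143.2 CPM in mock. The groups did not overlap, and it fell by 0.52 on the log2 scale (SE 0.12, adjusted p = 0.00589). Srebf1 (chr11:60199089-60222581) had 92.7, 111.8 and 119.4 CPM in MYBup and 103.6, 87.6 and 106.3 CPM in mock. Here the groups overlapped (log2 fold change 0.12, SE 0.14, adjusted p = 0.563). Reads per gene do not separate SREBP-1a from SREBP-1c transcripts. Stard4, a cytosolic sterol carrier induced by SREBP-2, had 45.8, 51.1 and 48.3 CPM in MYBup and 89.2, 73.4 and 73.2 CPM in mock, and fell by 0.70 (SE 0.099, adjusted p = 0.000238). Scap, the escort protein, averaged 117.6 ± 7.04 CPM over MYBup and 120.8 ± 9.01 CPM over mock (SD, n = 3 each; log2 fold change -0.039, SE 0.088).

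In the LXR arm 1 of the 4 tested genes fell. Abcg1 (chr17:31057675-31117988), a cholesterol exporter induced by LXRs, had 0.244, 0.518 and 0.373 CPM in MYBup and 3.13, 2.14 and 1.83 CPM in mock. The groups lay far apart, with 17 counts summed over MYBup and 124 over mock, and the log2 fold change was -2.63 (SE 0.43, adjusted p = 0.00061). The receptor genes did not pass: Nr1h2, encoding LXR beta, averaged 27.0 ± 4.73 CPM over MYBup and 26.3 ± 6.06 CPM over mock, and Nr1h3, encoding LXR alpha, 0.934 ± 0.357 CPM over MYBup and 1.07 ± 0.431 CPM over mock (SD, n = 3 each). Mylip, which encodes the LXR-induced ubiquitin ligase IDOL, did not pass either (log2 fold change -0.036, SE 0.17, adjusted p = 0.902).

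In the fatty acid arm all 9 genes fell in MYBup cells, and in all 9 the groups did not overlap. Fads2 (chr19:10062765-10101746), the delta-6 desaturase of polyunsaturated fatty acids, had 43.3, 46.7 and 47.6 CPM in MYBup and 122.8, 109.4 and 106.4 CPM in mock. The groups stood far apart, and the log2 fold change was -1.30 (SE 0.13, adjusted p = 2.19e-05). Its neighbour Fads1 (chr19:10182888-10196877), the delta-5 desaturase, had 64.9, 57.8 and 62.6 CPM in MYBup and 113.6, 122.3 and 98.2 CPM in mock. It fell by 0.85 (SE 0.10, adjusted p = 8.67e-05).

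Fasn (chr11:120805846-120824547) encodes fatty acid synthase, and had 483.3, 596.3 and 585.0 CPM in MYBup and 1097, 792.8 and 963.6 CPM in mock. Both groups spread widely without overlap, and Fasn fell by 0.78 (SE 0.12, adjusted p = 0.000412). Acaca, the carboxylase that makes malonyl-CoA, fell by 0.73 (SE 0.14, adjusted p = 0.00247), although 29.2% of its 50-base stretches are shared with the pseudogene Gm5182. Elovl6, an elongase of saturated fatty acids, fell by 0.53 (adjusted p = 0.0102, and 0.0564 without mock replicate 1). Acsl3, an acyl-CoA synthetase, fell by 0.49, and Acly, which makes cytosolic acetyl-CoA from citrate, by 0.42.

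Scd1 and Scd2 encode stearoyl-CoA desaturases, which place the double bond of oleate, and lie near each other on chromosome 19. Scd1 (chr19:44394455-44407879) had 24.03, 21.1 and 20.5 CPM in MYBup and 45.0, 36.8 and 26.5 CPM in mock. The groups were separated only by the gap to mock replicate 3, and the log2 fold change of -0.73 (SE 0.21, adjusted p = 0.0194) lost its call without mock replicate 1, MYBup replicate 2 or MYBup replicate 3, with adjusted p of up to 0.101. Scd2 (chr19:44293674-44306864) had 1082, 1166 and 1103 CPM in MYBup and 1919, 1657 and 1560 CPM in mock, and fell by 0.62 (SE 0.12, adjusted p = 0.00224). Per kilobase of exon, Scd2 had the highest mean level of the 39 genes in each group, at 204.4 CPM in MYBup, 313.4 in mock, 371.2 in lung3 and 364.1 in wt, against 4.47, 7.38, 26.9 and 26.0 CPM for Scd1.

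**Figure D2:**
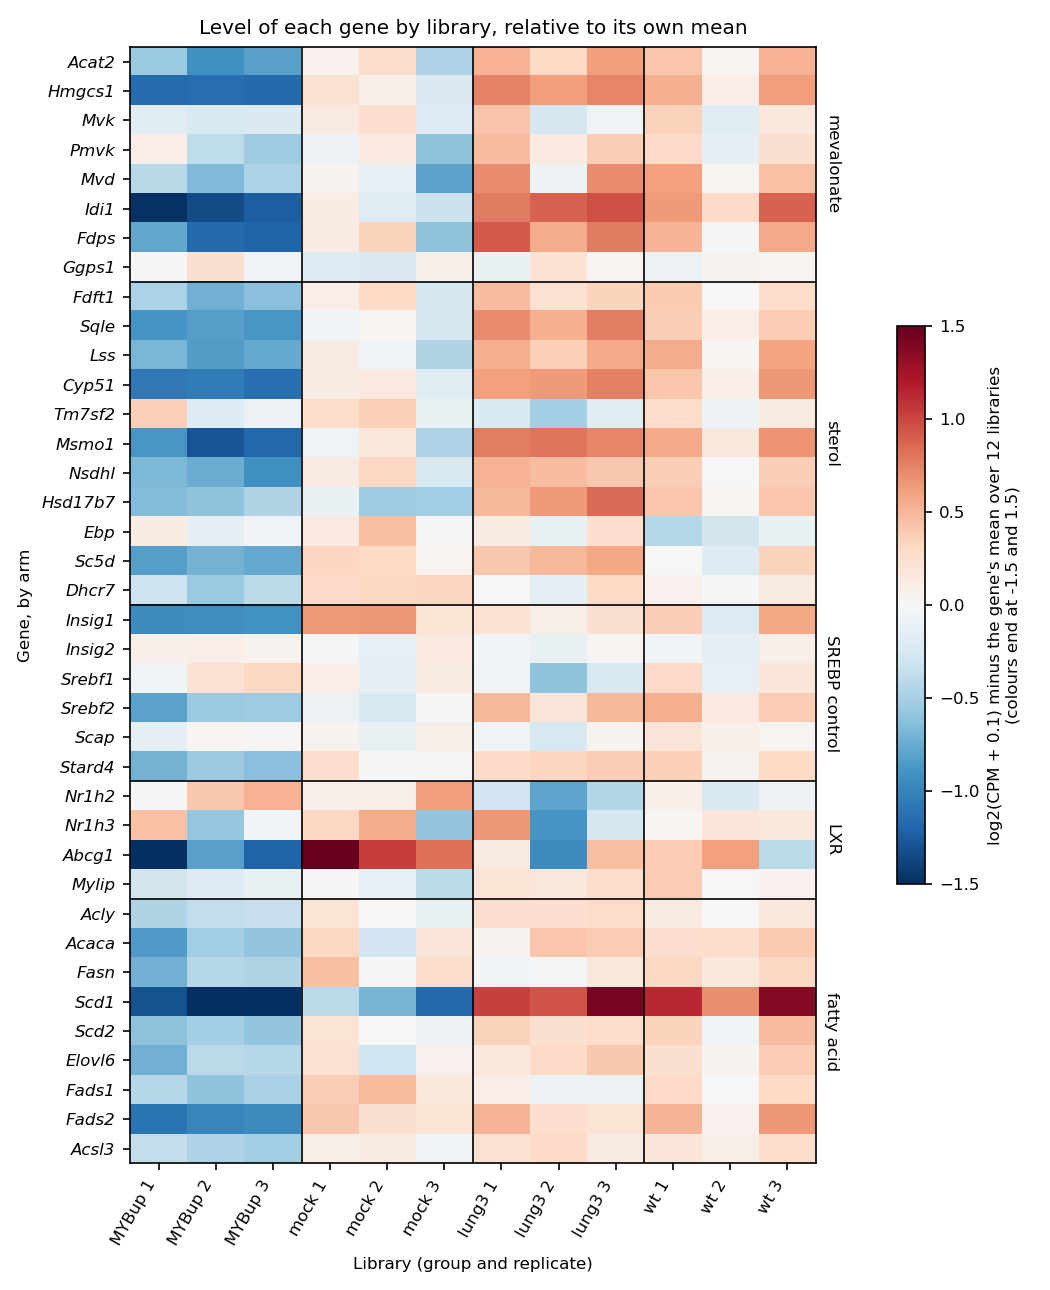
Heat map of the 38 tested genes (rows, by arm) in 12 libraries (columns), coloured by log2(CPM + 0.1) minus the gene's mean over the libraries. The MYBup columns are blue in the fatty acid arm throughout and in most mevalonate and sterol rows, and mock replicate 3 and wt replicate 2 are the lowest of their groups in many of the same rows.

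The same MYBup libraries were also set against wt, the other unpassaged line, so the values share those libraries with the comparison above. Here 27 of 38 genes fell, against 18.7% of all genes called lower, and 0 rose, against 19.4% called higher, with a median log2 fold change of -0.84. At an unadjusted p under 0.05, 1 gene was higher, and by DESeq2 and limma voom 0 rose. Log2 fold changes were -1.59 for Hmgcs1, -1.97 for Idi1, -1.49 for Cyp51, -1.22 for Insig1, -1.44 for Fads2 and -0.79 for Fasn, with adjusted p between 1.88e-06 and 0.00026. Mvd and Hsd17b7 fell by 0.91 and 0.87 against wt. In 24 of 38 genes all 3 MYBup libraries lay below all 9 others, against 8.05% of all genes, and in 30 the MYBup mean was the lowest of the 4, against 29.4%. The 24 held 4 mevalonate, 8 sterol, 3 SREBP and 9 fatty acid genes.

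The mock line itself differed from wt for part of the list, as it did for 4056 of all 11291 tested genes. Of the 38, 10 fell in mock, against 17.9% of all genes called lower, and 2 rose, against 18% called higher, with a median log2 fold change of -0.17. The largest fall was that of Scd1, with 45.0, 36.8 and 26.5 CPM in mock and 130.0, 96.5 and 155.3 CPM in wt. The groups were far apart (log2 fold change -1.81, SE 0.20, adjusted p = 2.95e-05), and against wt the log2 fold change of MYBup was -2.54 (SE 0.21, adjusted p = 2.35e-06). Idi1 fell by 0.74, Hsd17b7 by 0.66, Msmo1 by 0.58, Srebf2 by 0.48 and Sqle by 0.38 in mock, and these calls held without any single library. Those of Mvd, Lss, Hmgcs1 and Cyp51 (log2 fold changes -0.63, -0.51, -0.40 and -0.37) ended without mock replicate 3, wt replicate 1 or wt replicate 3, each of which left 6 genes lower, and that of Mvd also ended without mock replicate 2. The 2 genes that rose were Ebp (0.47, lost without wt replicate 1) and Abcg1 (0.98, lost without mock replicate 1, wt replicate 1 or wt replicate 3). Insig1 was at 103.4 ± 17.6 CPM in mock and 88.1 ± 23.4 CPM in wt (SD, n = 3 each) and did not pass (log2 fold change 0.23, SE 0.16).

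Few of these genes passed the test between lung3 and wt cells. In the fit without a replicate block, 1 of 38 genes rose, against 2.91% of all genes called higher, and 0 fell, against 2.44% called lower, by edgeR. At an unadjusted p under 0.05, 5 genes were higher and 3 lower, but the share over all genes at that threshold was not counted. DESeq2 and limma voom each called 2 higher and 0 lower, against 919 and 617 of all genes called in either direction. The gene that rose was Sqle, with 230.0, 203.3 and 238.1 CPM in lung3 and 181.7, 150.2 and 183.1 CPM in wt. The groups did not overlap, and replicate 2 was the lowest library of both. The log2 fold change was 0.38 (SE 0.097, adjusted p = 0.0361), and the call ended without wt replicate 1, wt replicate 2, lung3 replicate 1 or lung3 replicate 3, when the adjusted p reached up to 0.132. The median log2 fold change of the 38 was 0.057, of the sterol arm 0.27 and of the mevalonate arm 0.17. Without wt replicate 2, 0 of the 38 were called by edgeR in either direction and the median of the 38 was -0.015.

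Replicate numbers deviated together between lung3 and wt, and a fit with the replicate number as a block called more genes. With the block, 8 of 38 genes rose, against 8.67% of all genes called higher, and 5 fell, against 9.24% called lower. The 8 were Hmgcs1, Fdps, Sqle, Cyp51, Msmo1, Hsd17b7, Ebp and Sc5d, all of the mevalonate and sterol arms. Sc5d had 89.1, 94.8 and 101.2 CPM in lung3 and 67.4, 59.2 and 85.4 CPM in wt, so that the groups stood apart. Its log2 fold change was 0.43 (SE 0.12, adjusted p = 0.0559) without the block and 0.44 (SE 0.080, adjusted p = 0.00121) with it. Fdps had 232.2, 179.9 and 209.7 CPM in lung3 and 174.6, 121.2 and 181.1 CPM in wt, with overlap between groups but a higher lung3 library at each replicate number. The log2 fold change was 0.38 (SE 0.21, adjusted p = 0.316) without the block and 0.40 (SE 0.074, adjusted p = 0.00132) with it.

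Hmgcs1 had 228.7, 210.6 and 227.1 CPM in lung3 and 197.9, 146.5 and 211.3 CPM in wt, Cyp51 had 164.7, 166.7 and 181.7 CPM in lung3 and 143.0, 114.8 and 168.6 CPM in wt, and Msmo1 had 223.0, 227.1 and 216.3 CPM in lung3 and 193.7, 146.8 and 207.6 CPM in wt. All 3 lung3 libraries exceeded the wt library of the same number in each of these genes. With the block the log2 fold changes were 0.28, 0.28 and 0.29 (adjusted p = 0.0204, 0.0200 and 0.0276), and without it the adjusted p were 0.256, 0.223 and 0.327. For Hsd17b7 and Ebp the log2 fold changes with the block were 0.37 and 0.36 (adjusted p = 0.0121 for each), against adjusted p of 0.142 and 0.129 without it.

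The 5 genes that fell with the block were Srebf1, Fasn, Fads1, Nr1h2 and Tm7sf2, of which Tm7sf2 belongs to the sterol arm. Exons of Vps51 on the same strand cover 12.1% of the exon length of Tm7sf2, so the counts of Tm7sf2 are uncertain. Srebf1 had 92.2, 63.4 and 82.1 CPM in lung3 and 118.2, 88.3 and 109.4 CPM in wt. The groups overlapped, yet each lung3 library lay below the wt library of its number. The log2 fold change was -0.41 with SE 0.067 with the block (adjusted p = 0.000437) and SE 0.14 without it (adjusted p = 0.124). Fasn and Fads1 each fell by 0.22 with the block (adjusted p = 0.033 and 0.0472), against adjusted p of 0.307 and 0.239 without it. Nr1h2 fell by 0.42 and Tm7sf2 by 0.43 (adjusted p = 0.00763 and 0.045, and 0.208 and 0.204 without it). Scd1 was at 131.8 ± 24.4 CPM in lung3 and 127.3 ± 29.5 CPM in wt, and Insig1 at 82.0 ± 4.65 CPM in lung3 and 88.1 ± 23.4 CPM in wt (SD, n = 3 each), and neither passed in either fit.

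**Figure D3:**
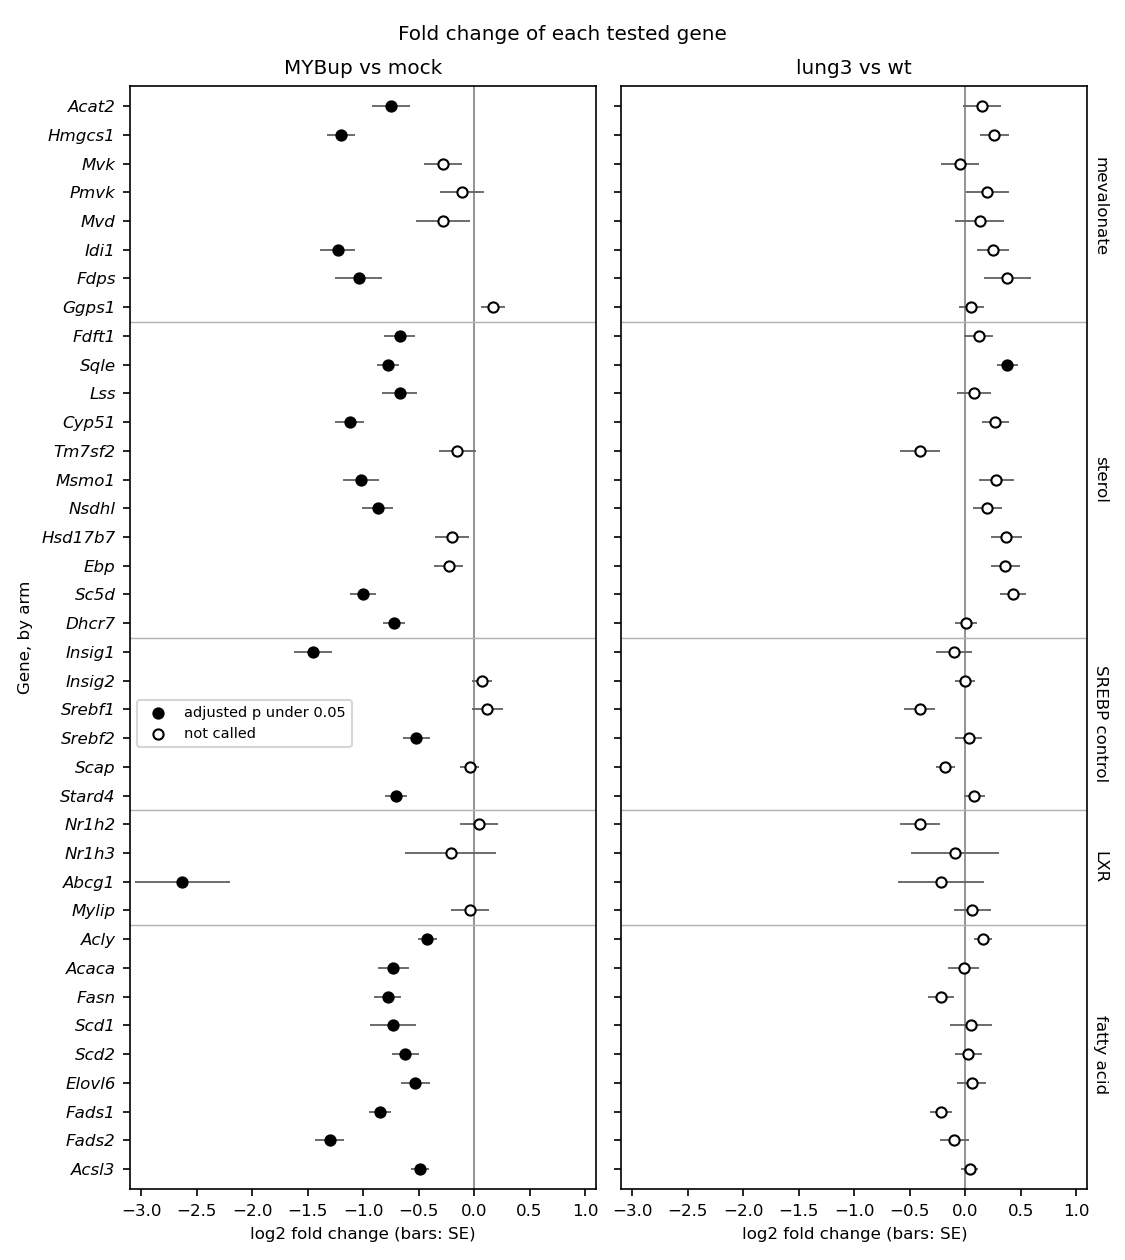
Log2 fold change of the 38 tested genes (rows, by arm) for MYBup against mock on the left and lung3 against wt on the right, both from the fit without a replicate block, with bars for SE and filled points for an adjusted p under 0.05. Filled points number 25 on the left, all below 0, and 1 on the right, Sqle at 0.38.

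The libraries of MYBup and mock are separate from those of lung3 and wt, so calls of opposite sign in both pairs were counted. Sqle was the 1 gene of the 38 called lower in MYBup relative to mock and higher in lung3 relative to wt, against 96 of 11291 genes (0.85%). With the block in lung3 and wt there were 6, namely Hmgcs1, Fdps, Sqle, Cyp51, Msmo1 and Sc5d, against 197 of 11085 genes (1.78%). The difference between the 2 comparisons was tested as such in the fit without a block: for 25 of 38 genes the change in MYBup was lower than that in lung3, against 9.52% of all genes, and for 0 it was higher, against 10.4% (1 at an unadjusted p under 0.05, and 0 by DESeq2 and limma voom). The differences in log2 fold change were -1.46 for Hmgcs1 (SE 0.18, adjusted p = 0.000176), -1.49 for Idi1, -1.43 for Sc5d, -1.38 for Cyp51, -1.35 for Insig1 and -1.20 for Fads2. Such a difference can rest on the fall in MYBup alone and does not by itself mean a rise in lung3. The means of Insig1 and Fads2 were lower in lung3 than in wt, and those of Hmgcs1, Idi1, Sc5d and Cyp51 higher. Leaving out 1 library gave between 18 genes, without lung3 replicate 3, and 25. The call of Acat2 ended without MYBup replicate 2 (adjusted p = 0.0529) and that of Abcg1 without lung3 replicate 3 (adjusted p = 0.0502). Those of Lss, Ebp, Srebf2, Acaca, Fasn and Elovl6 ended without any of several libraries, with adjusted p of up to 0.110, and that of Scd1 was not made (-0.78, SE 0.28, adjusted p = 0.0664).

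Seen over the 4 groups, the arms had different orders. The 19 mevalonate and sterol genes together summed to 736.6, 666.0 and 670.5 CPM in MYBup, 1276, 1335 and 991.0 CPM in mock, 1818, 1664 and 1847 CPM in lung3 and 1572, 1227 and 1664 CPM in wt. MYBup lay below every other library, mock overlapped wt, and the lowest lung3 library equalled the highest wt library to the nearest CPM. The 9 fatty acid genes summed to 2227, 2471 and 2398 CPM in MYBup, 4193, 3447 and 3514 CPM in mock, 4128, 3995 and 4217 CPM in lung3 and 4326, 3566 and 4612 CPM in wt. By this sum, most of which came from Scd2 and Fasn, mock, lung3 and wt overlapped and MYBup alone stood apart. Scd1 differed from the sum in being low in mock as well, as given above. The lung3 mean was the highest of the 4 in 22 of 38 genes, against 30.2% of all genes, among them 6 of 8 mevalonate and 8 of 11 sterol genes.

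**Figure D4:**
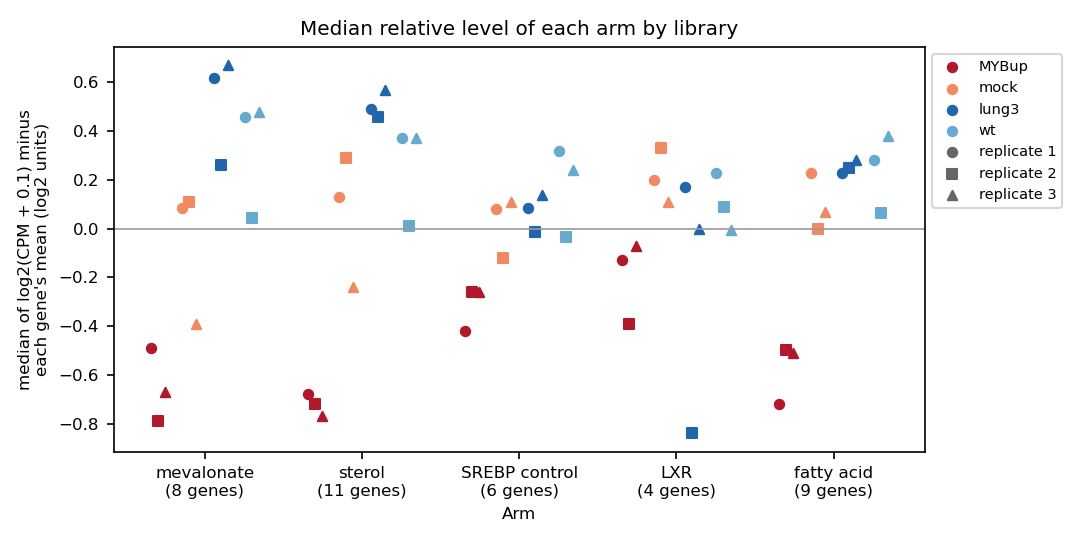
Median over the tested genes of each arm of log2(CPM + 0.1) minus the gene's mean, 1 point per library, with colour for the group and shape for the replicate number. In the sterol arm the MYBup libraries lie at -0.77 to -0.68 and those of lung3 at 0.46 to 0.57, while mock replicate 3 (-0.24) and wt replicate 2 (0.011) are the lowest of their groups.

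Single libraries moved these genes together within a group. Replicate 2 was the lowest wt library in 32 of 38 genes (84.2%), against 31.6% of all tested genes, and the lowest lung3 library in 24 (63.2%), against 37.8%. Replicate 3 was the lowest mock library in 27 genes (71.1%), against 37.2% of all genes, and in 16 of the 19 mevalonate and sterol genes. Summed over the mevalonate and sterol genes, the 3 MYBup libraries, at 736.6, 666.0 and 670.5 CPM, were closer to each other than those of mock or wt. The lung3 libraries, at 1818, 1664 and 1847 CPM, were about as close in proportion. The wt replicate 2 library was the deepest of the 12 and the lung3 replicate 2 library the shallowest. The part of depth, culture or handling in these shifts was not tested.

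A further 62 genes of the same pathways, chosen for their function, were counted as a list, and 53 were tested. In MYBup relative to mock, 17 fell, against 12.6% of all genes, and 5 rose, against 14.3% of all, with a median log2 fold change of -0.12, against -0.67 for the 38. By the rule for naming, Lpin1, a phosphatidate phosphatase of triglyceride synthesis, fell by 1.00. Lipa, the lysosomal acid lipase that frees cholesterol from esters, went the other way, with 38.1, 40.2 and 38.0 CPM in MYBup and 24.1, 23.8 and 22.0 CPM in mock (log2 fold change 0.73, SE 0.082, adjusted p = 3.90e-05).

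In lung3 relative to wt, 2 of the 53 rose, against 2.91% of all genes, and 0 fell, against 2.44%, by edgeR. DESeq2 called 2 lower and limma voom 0, against 919 and 617 of all genes called in either direction. At an unadjusted p under 0.05, 5 were lower, again without a count of the share over all genes. The 2 that rose were Fads3, a desaturase-like neighbour of Fads1 and Fads2, and Rnf139, a ubiquitin ligase of the endoplasmic reticulum. Fads3 had 111.9, 92.2 and 79.3 CPM in lung3 and 67.7, 56.9 and 69.6 CPM in wt, without overlap. Its log2 fold change was 0.55 (SE 0.11, adjusted p = 0.0142), and the call ended without wt replicate 2 or lung3 replicate 1. In MYBup relative to mock Fads3 fell by 0.40 (SE 0.12, adjusted p = 0.0236), a call that ended without mock replicate 1, MYBup replicate 2 or MYBup replicate 3. Rnf139 rose by 0.26 (SE 0.059, adjusted p = 0.0211) in lung3, a call that ended without any 1 wt library, lung3 replicate 2 or lung3 replicate 3, and 22.3% of its exon length overlaps Tatdn1 on the opposite strand.

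In mock relative to wt, 10 of the 53 rose, against 18% of all genes, and 14 fell, against 17.9%. The 4 named by the rule all rose: Cpt1a, the gate of fatty acids into mitochondria, Npc2, a lysosomal cholesterol carrier, Arl4c, an LXR target, and Mid1ip1, an activator of acetyl-CoA carboxylase. Cpt1a had 70.9, 62.7 and 53.9 CPM in mock and 20.95, 24.4 and 20.7 CPM in wt, well apart, and its log2 fold change was 1.51 (SE 0.12, adjusted p = 2.38e-06). For Npc2, Arl4c and Mid1ip1 the log2 fold changes were 1.01, 0.82 and 0.72, and exons of Gm14493 on the opposite strand cover 25.5% of the exon length of Mid1ip1. Fads3, named above for lung3, fell by 0.60 (SE 0.12, adjusted p = 0.00149) in mock. In MYBup relative to wt, 8 of the 53 rose, against 19.4% of all genes, and 20 fell, against 18.7%. The log2 fold changes were 1.46 for Cpt1a and 1.03 for Lipa, and Fads3 fell by 1.00 (SE 0.12, adjusted p = 4.335e-05).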

How the data were processed

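RNA of 12 libraries of 4T1 cells was extracted with RNeasy and sequenced from TruSeq RNA libraries, per the labels' protocols. STAR, edgeR and the build GRCm38 are named in the submitters' processing notes. Which versions were run, how reads were assigned to genes and with which annotation, and whether strand was used, is not given in the sources used. The deposited table holds counts per gene, and every deposited count over 4 digits was rounded to 4 significant digits (an error of at most 0.05%), which touched 24 values of the genes described. Of its columns, 0 were left unused.

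Counts were tested with edgeR 4.0.16 in R 4.3.3: TMM scaling, the filterByExpr filter by group, a single fit of the 12 libraries with 1 coefficient per group, the quasi-likelihood test, Benjamini-Hochberg adjustment over 11291 genes and a threshold of 0.05. CPM are per 1000000 counts in tested genes after TMM scaling. The SE of a log2 fold change is its size divided by the square root of the F value. Figures were drawn with matplotlib 3.10.9 in Python 3.11.15, with 0.1 CPM added before logs. Gene coordinates and exon lengths are those of GENCODE release M21 on GRCm38, and promoters those of RefSeq. Shared sequence was counted as stretches of 50 bases. The steps were tested on simulated data.

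The genes, the lists and the tests were chosen with earlier results of these data known. Full values per library are given for the called genes with the largest changes of each arm and for paralogs and regulators named beforehand. Genes outside the list are named by the size of their change among the called ones with a mean log2 CPM of at least 3. Some genes that this rule names are not reported here.

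Replicate pairs of a group differed by a chi-square per gene of 2.29 to 37.3, so each library was counted as 1 sample. The labels give every group the replicate numbers 1 to 3. For lung3 and wt, deviations from the group means correlated at 0.329, 0.294 and 0.309 where the replicate number was shared. Where it differed, the correlation ran from -0.212 to -0.093. The main test of lung3 against wt nevertheless used no block, and pairing by number entered only through the alternative fit with a replicate block. For MYBup and mock, shared numbers gave -0.191, -0.496 and 0.382, so those libraries were not taken as paired. Alternatives were RLE size factors, no low-count filter, DESeq2 1.42.0, limma 3.58.1 with voom, a replicate block, fits on the 6 libraries of a comparison and leaving out each library. Leaving out mock replicate 3 and lung3 replicate 3 together was added after the data were seen.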

Additional observations from a re-analysis of the deposited data

How the results depend on the processing

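Every log2 fold change of the 38 genes kept its direction where it was called, under every alternative run. Relative to the main test, 25 genes fell in MYBup against mock under the other settings without a block, 23 with a replicate block and 23 to 25 with 1 library left out. Over all genes, the comparison of MYBup with mock gave 3038 calls, and 1479 with the replicate block, whose numbers do not pair those libraries. The comparison of lung3 with wt gave 605 calls, against 919 by DESeq2, 1985 with the replicate block and 237 to 688 with 1 library left out. Of the 38 genes, the number that rose in lung3 was 1, against 2 without a filter, 2 by DESeq2, 2 by voom, 8 with the block, 0 to 2 with 1 library left out and 0 without mock replicate 3 and lung3 replicate 3 together. The number that fell in lung3 was 0, and 5 with the block. In mock against wt 10 fell, but 8 with the block, 6 in a fit on the 6 libraries, 6 without mock replicate 3 and lung3 replicate 3 together and 6 to 11 with 1 library left out, while the number that rose was 2, but 3 in the fit on the 6 libraries and 0 to 2 with 1 library left out. In MYBup against wt 27 fell (28 with the block, 27 to 28 with 1 library left out) and 0 rose, but 1, Nr1h2, rose in the fit on 6 libraries and in that without mock replicate 3 and lung3 replicate 3, and 0 to 1 with 1 library left out. For the difference between the comparisons, 25 were lower (27 by DESeq2, 27 without a filter, 23 with the block, 22 without mock replicate 3 and lung3 replicate 3 together, 18 to 25 with 1 library left out) and 0 higher (1 with the block, 0 to 1 with 1 library left out). The cause of these shifts was not tested. The block changed no call of MYBup against mock beyond those of Acly and Elovl6. Depth limits Abcg1, Nr1h3 and Abca1, which had at most a few CPM.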
